A study of Zea mays with 46 samples.

Results

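NLP14 is a maize factor of the NIN-like protein family, and its DNA sites were read as 3618 peaks, which are all positions in the single peak list deposited for it. They make up 0.352% of the 1028473 peaks in the 14 DAP-seq lists of the series. The study followed P1, a MYB factor of maize pigmentation, and mapped DNA binding of many tagged factors beside it. In DAP-seq (DNA affinity purification sequencing) a factor is made outside the plant with a tag, here Halo, and pulls the fragments it binds out of purified genomic DNA. The DNA for NLP14 came from pooled leaves of 2-week-old seedlings of the B73 x A632 F1 hybrid, was labelled deMethylated, was cut to 200 to 300 bp, and was read as single reads of 50 nt. All 13 other DAP lists used DNA of this hybrid. For 10 of them (CPP8, DOF3, DOF23, EREB7, EREB122, MYB53, MYB100, P1, THX39 and WRKY38) the DNA was labelled deMethylated as well, and for 3 (GBP20, HSF24 and MYB40) Methylated. A pair of ChIP-seq lists, made with an antibody serum against P1, came from leaf protoplasts of etiolated F1 seedlings 12 days old and from F1 silk. Pooled leaves gave the protoplasts, and 35S:P1, P1 behind a strong constitutive promoter, stands in the title of the protoplast sample whose treatment field reads input. The sample with the protoplast list has input in its title and the antibody in its treatment field, which was followed. The silk list names P1-ww as its control, and the P1-ww silk input is labelled as the inbred A619.

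NIN-like proteins carry an RWP-RK domain, which binds DNA, and a PB1 domain, through which proteins pair. In Arabidopsis, members of the family bind a nitrate-responsive element in nitrate-induced genes, and NLP7 senses nitrate. Naked DNA carries no chromatin, so a DAP peak marks DNA that the factor can bind outside the cell, whether or not it does so in a leaf. The peaks were placed on B73 RefGen_v4. No genome sequence or annotation of that build was used here, so the peaks are given by position alone, and their motifs and nearest genes were not analysed here.

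Every NLP14 peak was 200 bases wide, as was every peak of 12 of the 13 other DAP lists, so width does not tell the sites apart. P1 was the exception, with peaks of 201 to 883 bases and a median of 202. Together the NLP14 peaks covered 722 kb of the 10 numbered chromosomes, which span 2106 Mb up to the last peak of any list on each. NLP14 had 1.72 peaks per Mb. Of the other DAP lists only 2 were sparser, EREB7 with 1.04 and GBP20 with 1.2 peaks per Mb, while the median list had 47.0 and DOF23, the densest, 88.9. Each factor has 1 list and the lists have no replicates, so no test between lists was possible. Shares are given with 95% Wilson intervals and densities with exact 95% Poisson intervals, which cover counting error only and treat neighbouring peaks as independent.

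All 10 chromosomes held NLP14 peaks at much the same density. Chromosome 6 had the most for its length, with 321 peaks or 1.84 per Mb (interval 1.65 to 2.06). Chromosome 5 had the fewest, with 357 peaks or 1.59 per Mb (1.43 to 1.77), and the intervals of these extremes overlapped. In number, chromosome 1 led with 542 peaks and chromosome 9 had the fewest with 259. The share of NLP14 peaks on each chromosome followed its share of the total span closely, from 15.0% against 14.6% on chromosome 1 to 7.38% against 7.17% on chromosome 10. The widest deviations were again chromosome 6, which held 8.87% of the NLP14 peaks on 8.26% of the span, and chromosome 5, which held 9.87% on 10.6%. The shares of the 13 other DAP lists ran from 7.6% to 8.49% on chromosome 6 and from 10.1% to 11.1% on chromosome 5, so NLP14 lay above each of them on the former and below each on the latter, by less than its own counting error.

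Along the chromosomes NLP14 peaks were spread more evenly than those of any other DAP list. When each chromosome was divided into 10 equal parts, the emptiest part (the first) held 334 NLP14 peaks and the fullest (the last) 424, a ratio of 1.27. In the 13 other lists this ratio ran from 1.55 in CPP8 to 3.87 in EREB7. The emptiest part was the fourth in all other lists but GBP20, where it was the sixth, and in EREB7 the fifth part held equally few peaks. The fourth part held 9.7% of NLP14 peaks (interval 8.78 to 10.7%), against 7.31% of WRKY38, 6.29% of P1 and at most 8.49% (GBP20) of any other DAP list. At the ends the order was reversed. The first part held 9.23% of NLP14 peaks (8.33 to 10.2%), against 10.0% to 15.6% in the others.

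**Figure D1:**
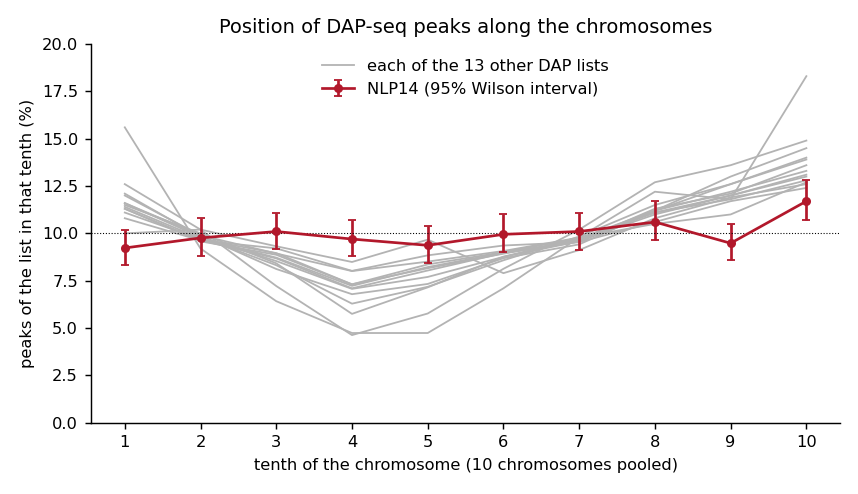
Share of the peaks of each DAP list (percent, vertical axis) in 10 equal parts of the chromosomes, pooled over 10 chromosomes (horizontal axis); red points are NLP14 with 95% Wilson intervals, grey lines the 13 other DAP lists, and the dotted line an even spread. NLP14 stays between 9.23% and 11.7% throughout, while most other lists dip in parts 4 and 5 and rise at both ends.

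Parts 3 to 6, called the middle of the chromosomes here, held 1416 NLP14 peaks or 39.1% (37.6 to 40.7%). The highest share in the other lists was 35.4%, in CPP8 and GBP20, and the lowest 23.0%, in EREB7. This held on each of the 10 chromosomes when NLP14 was set against the 13 other lists pooled, with 34.8% to 43.2% for NLP14 and 30.6% to 35.0% for the others. Against WRKY38 alone it held on 9 of 10. GBP20, a list of like size, had 22.7% of its peaks in the outermost 2 parts, NLP14 21.0% and EREB7, also of like size, 33.9%.

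NLP14 peaks, few in number, seldom lay side by side. Neighbours on a chromosome were a median of 382522 bases apart, with quartiles of 149522 and 800981, and only 134 of 3608 neighbour distances, 3.71%, were 10 kb or less. The other DAP lists had 8.09% (GBP20) to 74.1% (DOF23) of their distances in that range, but most of them hold many more peaks, which brings neighbours closer. A measure that depends less on the number of peaks is the density of peaks of the same list at 2 to 10 kb from a peak, divided by that at 20 to 50 kb. For NLP14 it was 1.45 (1.15 to 1.82, from 76 near pairs), the lowest of the 14 lists but still above 1, the value without clustering. This interval leaves out the counting error of the 196 far pairs and is therefore too narrow. EREB122 came next with 1.59 and CPP8 had 1.76, both inside the NLP14 interval. P1 at 2.01 and MYB40 at 2.33 lay above it. WRKY38 at 1.86 lay too close to its upper end to be told apart from NLP14. The interval of EREB7, 1.63 to 3.15, overlapped that of NLP14. Within 1 kb NLP14 was in the midst of the lists. Its density there was 4.29 times that at 20 to 50 kb, from 28 pairs, with 8 of the other lists lower and 5 higher.

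**Figure D2:**
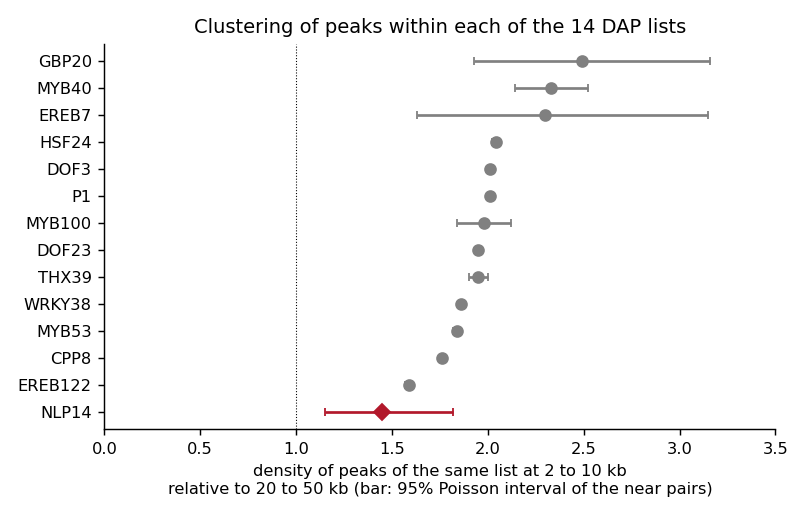
Density of peaks of the same list at 2 to 10 kb divided by the density at 20 to 50 kb (horizontal axis, no unit) for the 14 DAP lists, after overlapping peaks of a list were merged; bars are exact 95% Poisson intervals of the near pairs and the dotted line marks no clustering. NLP14 (red) is lowest at 1.45, and GBP20 is highest at 2.49 with a wide interval.

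When neighbours whose starts lay within 10 kb were joined, 267 NLP14 peaks or 7.38% fell into 133 runs, and the rest stood alone. Of these runs 132 were pairs. The single run of 3 spanned the start positions 159410924, 159417173 and 159422415 on chromosome 1. Its first peak was shared with no other list, its middle one with WRKY38, and its last with WRKY38, DOF3, DOF23 and MYB53. It lay in the densest window of 1 Mb, from 159 to 160 Mb on chromosome 1, which held 9 NLP14 peaks. The next window, at 180 to 181 Mb on chromosome 7, held 8.

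The tightest pairs were peaks that overlap each other. There were 14 such pairs, with starts from 36 bases apart upward. The closest began at 22102173 and 22102209 on chromosome 8, and the next at 123933205 and 123933246 on chromosome 1. Of the 9 tightest pairs, 5 were shared with no other list at either peak: those on chromosome 8, at 123933205 and 188758976 on chromosome 1, at 112023155 on chromosome 6 and at 174601190 on chromosome 2. The remaining 4 overlapped WRKY38 in at least 1 peak. They began at 110765094 on chromosome 9, at 170312386 on chromosome 4 (where both peaks also overlapped EREB122), at 32452344 on chromosome 7 and at 72186951 on chromosome 3.

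At the other extreme, 682 neighbour distances exceeded 1 Mb. The longest stretch without an NLP14 peak ran for 5.17 Mb on chromosome 6, from 10646052 to 15812786. It held 377 peaks of the 13 other DAP lists, 27 of them WRKY38 and 75 DOF23 peaks. Over all chromosomes WRKY38 had 47.0 and DOF23 88.9 peaks per Mb, so this stretch was sparse in those lists as well. The next, 4.93 Mb on chromosome 4 from 211522672 to 216449385, held 3007 peaks of the other lists, 277 of them WRKY38 peaks, so other factors bound there in number where NLP14 had none.

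NLP14 sites were shared with other factors to a middling degree. Of the 3618 peaks, 2106 overlapped at least 1 other DAP list by 1 base or more and 1512, or 41.8% (40.2 to 43.4%), overlapped none. Over all peaks of the 13 other lists the share without a partner was 36.7%, and list by list it ran from 3.04% in MYB100 to 77.1% in EREB122, with 8 lists below NLP14 and 5 above. By number of partners, 1086 NLP14 peaks overlapped 1 other list, 584 overlapped 2, 282 overlapped 3, 107 overlapped 4 and 37 overlapped 5. Only 10 overlapped 6 or 7. Since related factors share sites, the lists were also grouped by the family their names give (MYB with P1, DOF, EREB and the others singly). By family, 1280 NLP14 peaks had 1 partner family, 598 had 2, 184 had 3, 38 had 4 and 6 had 5. Family counts were not made for the other lists, so these have no background.

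**Figure D3:**
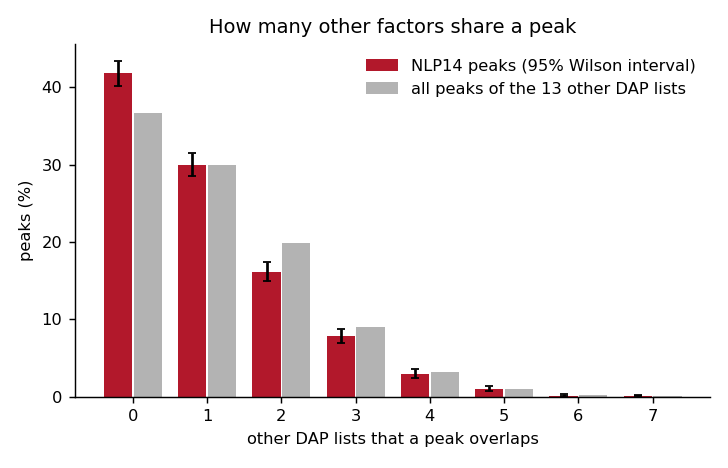
Share of peaks (percent, vertical axis from 0) by the number of other DAP lists that a peak overlaps (horizontal axis), for NLP14 (red, with 95% Wilson intervals) and for all peaks of the 13 other DAP lists pooled (grey). NLP14 has 41.8% of its peaks with no partner against 36.7%, and 16.1% against 19.8% with 2 partners.

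Most unshared NLP14 peaks had a peak of another list nearby. Their middles lay a median of 530 bases from the middle of the nearest peak of any other DAP list, with quartiles of 318 and 1310, and 1048 of the 1512 had one within 1 kb. The 13 other lists together hold 1024855 peaks on 2106 Mb, so many positions have such a peak nearby. No background was computed for these distances, so they are not a trait of NLP14 sites. A distance above 10 kb was found for 60 of them, 3.97%. The most isolated NLP14 peak, at 127833640 to 127833839 on chromosome 10, was 45214 bases from its nearest neighbour. The middle of the chromosomes held 41.7% (39.3 to 44.2%) of the unshared and 37.3% (35.2 to 39.4%) of the shared peaks, so both groups exceeded the 35.4% that was the highest among the other lists, the shared ones with an interval that just reached it.

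WRKY38, of a family best known from plant defence, was the only factor that NLP14 met more often than every other DAP list did. The overlap took in 641 NLP14 peaks, or 17.7% (16.5 to 19.0%), against 9.74% of all peaks of the 12 other DAP lists. None of those 12 lists had a share as high: the median was 10.5% and the highest 15.8%, in GBP20, which has 2533 peaks and so a counting error of its own. On each of the 10 chromosomes the NLP14 share, 12.7% to 21.6%, was above that of the other lists, 9.35% to 10.0%. Seen from the other side, 0.688% (0.639 to 0.742%) of WRKY38 peaks overlapped an NLP14 peak. This reverse share does not grow with the number of peaks in the partner's list, but wider peaks, as in the P1 list, can raise it. It was 0.537% for P1, 0.429% for HSF24, 0.376% for DOF23, 0.297% for EREB122 and 0.225% for CPP8. Only GBP20 had a higher one, 0.75% (0.481 to 1.17%), from 19 peaks.

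EREB122, an ERF-type factor (the group named for ethylene response), was also met more often than by most lists. It overlapped 306 NLP14 peaks, or 8.46% (7.59 to 9.41%), against 4.04% of all other DAP peaks. Most lists met EREB122 rarely, with a median of 4.16%, and 10 of the 12 lay below NLP14. The exceptions were EREB7, its family relative, at 81.9%, and GBP20 at 28.3%. On all 10 chromosomes the NLP14 share (6.72 to 12.3%) was above that of the pooled lists (3.86 to 4.34%). Its reverse share of 0.297% was nevertheless below those of P1, HSF24, DOF23, THX39, MYB53 and DOF3, so its place among the factors depended on the measure. EREB7 itself, with only 2196 peaks, overlapped 4 NLP14 peaks, or 0.111% (0.043 to 0.284%), against 0.267%, and all 4 were also EREB122 peaks. Its pooled value comes mainly from EREB122, and 9 of 12 lists lay below NLP14. GBP20, read on methylated DNA, overlapped 18 NLP14 peaks, or 0.498% (0.315 to 0.785%), against 0.199% of the other DAP peaks. It too had 10 of 12 lists below NLP14.

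The DOF zinc finger factors gave large counts that lay below those of most lists. DOF23 overlapped more NLP14 peaks than any other factor, 658 or 18.2% (17.0 to 19.5%), yet 30.1% of the other DAP peaks overlapped this longest of the lists. DOF3 overlapped 396 or 10.9% (9.97 to 12.0%), against 21.7%. Each of these backgrounds includes the other DOF list, 87.0% of DOF3 and 53.9% of DOF23 peaks. The median over the 12 lists, which that pair hardly moves, was 21.7% for DOF23 and 14.1% for DOF3, still above NLP14. Of the 396 NLP14 peaks on DOF3 sites, 341 were on DOF23 sites as well, 86.1%. That is close to the 87.0% of the whole DOF3 list, which counts direct overlap of DOF3 with DOF23 peaks.

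CPP8, of the cysteine-rich CPP family, overlapped fewer NLP14 peaks than its length would give at the rate of the other lists. The count was 320, or 8.84% (7.96 to 9.81%), against 18.0% of the other DAP peaks and a median over lists of 17.3%. On none of the 10 chromosomes did NLP14 (6.67 to 10.5%) reach the other lists (17.7 to 18.5%). The lists with smaller shares were EREB7, EREB122 and GBP20. THX39, a trihelix factor, overlapped 112 NLP14 peaks or 3.1% (2.58 to 3.71%), against 4.0%. The median over lists for THX39, 3.61%, lay inside the NLP14 interval. HSF24, of the heat shock factor family and read on methylated DNA, overlapped 445 or 12.3% (11.3 to 13.4%), against 11.1%, a difference that reversed when gaps of up to 500 bases were allowed (27.3% against 28.4%).

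**Figure D4:**
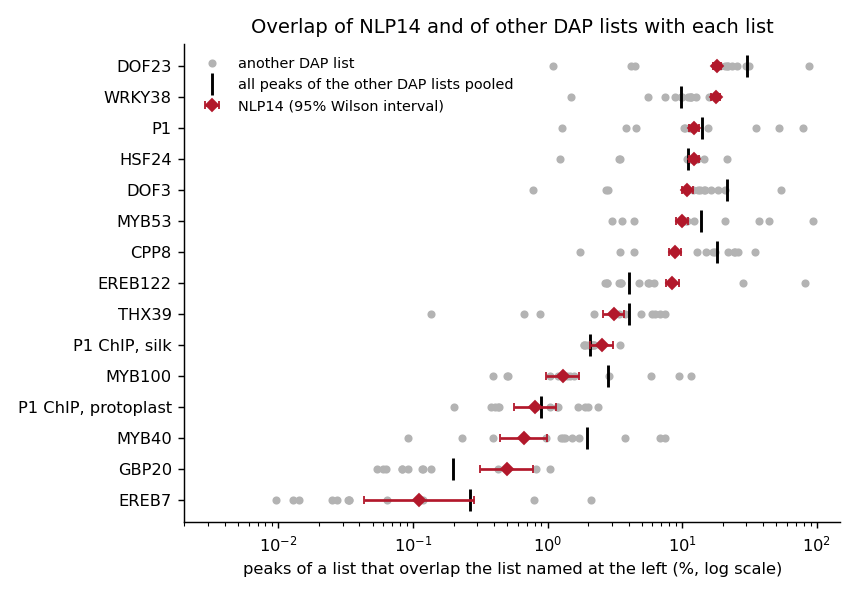
Share of peaks (percent, log scale) that overlap the list named at the left, for NLP14 (red diamonds, 95% Wilson intervals), for each other DAP list (grey points) and for all peaks of the other DAP lists pooled (black bars). NLP14 lies right of the black bar for WRKY38 (17.7% against 9.74%) and EREB122 (8.46% against 4.04%), and left of it for CPP8, DOF3 and DOF23.

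P1 DAP peaks overlapped 445 NLP14 peaks, or 12.3% (11.3 to 13.4%), against 14.1% of the other DAP peaks and a median over lists of 11.4%, with 8 of 12 lists below NLP14. The pooled value includes the other MYB lists, such as MYB40, 79.2% of whose peaks overlapped P1. MYB53 overlapped 361 NLP14 peaks or 9.98% (9.04 to 11.0%), against 13.9%, and on 1 of 10 chromosomes did NLP14 exceed the pooled lists. MYB100 overlapped 47 or 1.3% (0.978 to 1.72%), against 2.81%. MYB40 overlapped 24 or 0.663% (0.446 to 0.985%), against 1.96%. The medians over lists, 10.7% for MYB53, 1.42% for MYB100 and 1.32% for MYB40, were closer to the NLP14 values. Those for MYB53 and MYB100 lay inside the NLP14 intervals and that for MYB40 above its interval. Of the 12 lists, 3 lay below NLP14 for MYB53, 5 for MYB100 and 3 for MYB40. Of the 445 NLP14 peaks on P1 sites 155 were also on MYB53 sites, 34.8% (30.6 to 39.4%). In the whole P1 list 37.5% overlapped MYB53 directly, a different measure, since both peaks on an NLP14 peak need not overlap each other.

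The P1 ChIP lists were met rarely. In F1 silk 91 NLP14 peaks overlapped a ChIP peak, 2.52% (2.05 to 3.08%), against 2.06% of all peaks of the 13 other DAP lists, whose single values ran from 1.85% in DOF3 to 3.47% in GBP20. In protoplasts 29 did so, 0.802% (0.559 to 1.15%), against 0.896%. Both pooled values lay inside the NLP14 intervals, that for silk at the lower edge. ChIP peaks were not of 1 width, with 231 to 4901 bases in silk and 201 to 876 in protoplasts. With all peaks reset to 200 bases, 70 NLP14 peaks overlapped the silk list and 27 the protoplast list. The background at that width was not computed. The NLP14 peaks on silk ChIP sites lay nearer the chromosome ends than the rest, with 34.1% of the 91 in the outermost parts against 21.0% of all, although the silk list as a whole had 23.4% there. Only 1 NLP14 peak overlapped both ChIP lists, and 97 of the 119 on either list were not on a P1 DAP site. The share on P1 DAP sites was 13.2% for the silk and 34.5% for the 29 protoplast overlaps, against 12.3% of all NLP14 peaks.

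In 22 places an NLP14 peak coincided with a P1 DAP peak and a P1 ChIP peak, 12 with silk and 10 with protoplast ChIP. Of the NLP14 peaks on P1 DAP sites these were 2.7% (1.55 to 4.65%) for silk and 2.25% (1.23 to 4.09%) for protoplasts. In the whole P1 DAP list 2.49% and 2.36% overlapped these ChIP lists directly, a different measure, and both values lay within those intervals. The first 10 in chromosome order were 60930977 (protoplast), 225154282 (silk) and 241004005 (protoplast) on chromosome 1, 22778965 (silk) and 202416003 (protoplast) on chromosome 2, 26992660 (silk), 50602526 (silk), 179899802 (protoplast) and 183497301 (silk) on chromosome 3, and 10470246 (silk) on chromosome 4, each given by the first base of its 200. Several of them were shared further. The site at 202416003 was also shared with DOF23, MYB53 and MYB100, and the one at 10470246 with WRKY38 and THX39. Of all 22, 10 were sites of another MYB factor and 4 of WRKY38. Among all NLP14 peaks on P1 DAP sites, 34.8% were on MYB53 and 20.7% on WRKY38 sites.

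Peaks of the other DAP lists became denser towards NLP14 peaks. At 1 to 2 kb the density of the DAP lists was 2.01 (EREB122) to 2.56 (WRKY38) times that at 20 to 50 kb, much the same for every factor. Nearer than that the factors parted. WRKY38 rose to 0.58 peaks per kb (0.526 to 0.639, 420 pairs) where middles lay within 100 bases, 11.6 times (10.5 to 12.8) its density of 0.0499 at 20 to 50 kb. Around none of the 12 other DAP lists was the WRKY38 ratio as high, with a median of 5.56 and a highest value of 10.8.

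The WRKY38 pairs thinned out steadily with distance, 193 with middles under 40 bases apart, 160 at 40 to 80, 136 at 80 to 120, 114 at 120 to 160 and 83 at 160 to 200 bases. They stayed at 69 to 80 per 40 bases from there to 400. P1 and HSF24 rose 7.32 times (6.4 to 8.35) and 7.02 times (6.21 to 7.91). Of the 12 other lists, 8 had a lower ratio for P1 (median 6.55) and 11 for HSF24 (median 5.44). DOF23 rose 5.65 and DOF3 5.54 times, MYB53 4.94 and EREB122 4.49 times. For EREB122 this was still more than around most lists, whose median was 1.97, with 10 of 12 below. GBP20 rose 12.7 times, but from 11 pairs only (6.34 to 22.7). The silk P1 ChIP list rose 5.09 times (3.69 to 6.86, 43 pairs), with 12 of 13 DAP lists lower. The protoplast list rose 8.46 times (5.17 to 13.1, 20 pairs), with 8 of 13 lower.

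DOF3 and CPP8 had distinct profiles close to the middle. DOF3 was concentrated at the very centre, with 0.445 peaks per kb (0.379 to 0.519) within 50 bases and 0.224 (0.178 to 0.278) at 50 to 100. CPP8 was the only list with over 10000 peaks that was sparser within 50 bases than at 200 to 400. It had 0.185 peaks per kb (0.144 to 0.235, 67 pairs) within 50 bases, below its 0.292 (0.264 to 0.321, 422 pairs) at 200 to 400 bases, a ratio of 0.635. CPP8 dipped more than this around 3 of the 12 other lists, and around the median list it rose, with a ratio of 1.25. Within 100 bases CPP8 stood at 3.17 times (2.72 to 3.68) its density at 20 to 50 kb, the smallest rise of the lists with over 10000 peaks.

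**Figure D5:**
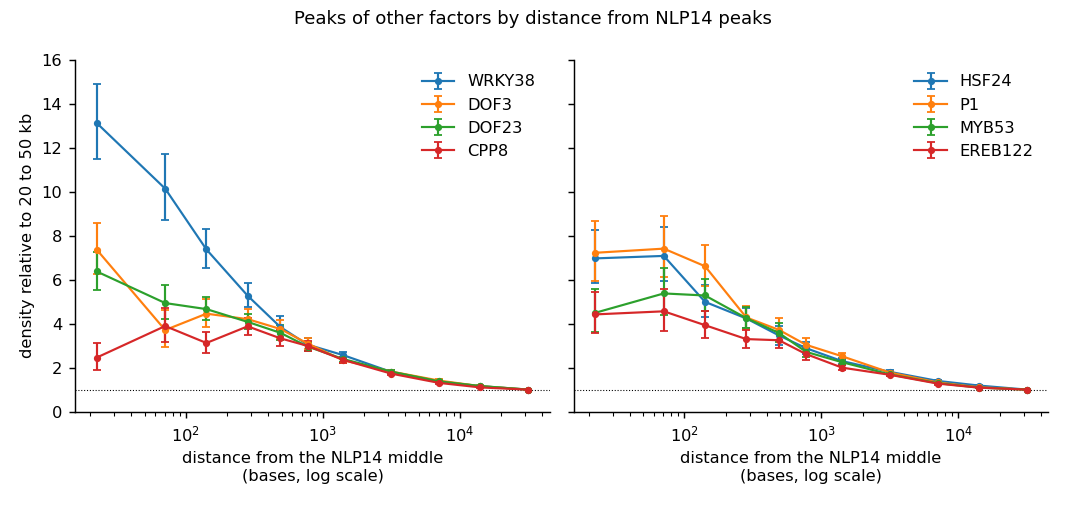
Density of peaks of 8 other factors by the distance between their middle and an NLP14 middle (bases, log scale), each divided by its own density at 20 to 50 kb (vertical axis, no unit); bars are exact 95% Poisson intervals, each point stands at the geometric middle of its distance class, and the class from 0 to 50 bases is placed at the left. All 8 rise alike down to about 600 bases, then WRKY38 climbs above the others and CPP8 falls below its own value at 200 to 400 bases.

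Peaks that took part in the WRKY38 overlap lay along the chromosomes much like NLP14 peaks in general, but met DOF23 more often. Only 4 partner lists were examined. Of the 641, 40.2% (36.5 to 44.1%) lay in the middle of the chromosomes, against 39.1% of all NLP14 peaks and 33.6% of all WRKY38 peaks. They overlapped EREB122 in 62 cases, 9.67% (7.62 to 12.2%), where the whole WRKY38 list did so in 6.13%. P1 took part in 92, 14.4% (11.9 to 17.3%), against 10.5%. DOF23 took part in 161, 25.1% (21.9 to 28.6%), against 20.7%. HSF24 took part in 77, 12.0% (9.72 to 14.8%), against 11.2%. Of these 4 factors all but HSF24 thus had intervals above the value of the whole WRKY38 list. That value counts WRKY38 peaks that overlap the factor directly. On an NLP14 peak the WRKY38 peak and the other peak need not overlap each other, so the measures differ. The whole NLP14 list had 8.46% on EREB122 and 12.3% on P1 sites, inside the intervals for the WRKY38 overlap, and 18.2% on DOF23 sites, below the interval there. These shares of the whole list include the 1512 peaks that overlap no other list. Meeting DOF23 more often was not particular to the WRKY38 overlap. Of the 320 NLP14 peaks on CPP8 sites, 116 were on DOF23 sites, 36.2% (31.2 to 41.7%). Of the 445 NLP14 peaks on HSF24 sites 87 were on P1 sites, 19.6% (16.1 to 23.5%), against 12.3% of all NLP14 peaks. In the whole HSF24 list 11.7% overlapped P1 directly, again a different measure.

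The 10 NLP14 peaks that the most other lists shared overlapped 6 or 7 of the 13. The 4 with 7 partners began at 147348197 on chromosome 3, at 165907818 and 208983325 on chromosome 5 and at 118546643 on chromosome 7. All 4 were shared with CPP8, DOF3, DOF23 and MYB53. P1 was absent from the one at 165907818 alone, and WRKY38 took part at 147348197 and 208983325. Those with 6 partners began at 286585356 on chromosome 1, 216979584 on chromosome 3, 148505607 on chromosome 6, 15865878 and 124148139 on chromosome 8 and 126290183 on chromosome 9. None of the 10 overlapped a P1 ChIP peak, but only 119 of all 3618 NLP14 peaks did. Peaks with 6 or more partners were as rare in NLP14, at 0.276% of the list, as in CPP8 (0.256%) or DOF23 (0.227%). They were far rarer than in MYB100 (2.57%) or MYB40 (2.8%), whose partners include the other MYB lists.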

How the data were processed

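Peak positions were used as deposited by the authors, on B73 RefGen_v4 per the submitters' processing notes, which also list bcl2fastq 2.20.0, FastQC, Trimmomatic and Bowtie2 2.3.4.1. What called the peaks, at which threshold, with which control and from how many replicates is not given in the sources used here, nor is the read depth of any list, so neither strength nor depth of a site is known. The growth text names another hybrid than the sample fields, which were followed. Calling depth can set how many sites a list holds and hence every overlap. Members, comparisons, distance classes and named regions were chosen with earlier results of these data known. Starts are given from 1.

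Intervals were compared in Python 3.11.15 with pandas 2.3.3, and scipy 1.17.1 gave the intervals. The functions were tested on simulated peaks, and the 15 overlap counts equalled those of bedtools 2.31.1. Background shares pool all peaks of the other DAP lists. Named regions were the 10 largest runs, the 10 most shared peaks and the first 10 on P1 DAP and ChIP sites. The widest and narrowest peaks, also in that rule, could not be told apart. Alternatives were the overlap needed, fixed widths, merging, the lists used and the joining distance. RNA-seq counts were not used, since they carry no positions.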

Additional observations from a re-analysis of the deposited data

How the results depend on the processing

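Overlap counts with all 15 lists stayed within 1.5 times when all peaks were reset to 200 bases, touching peaks were merged, or NLP14 peaks on 6 or more lists were left out. Within that limit, the reset to 200 bases lowered the count from 445 to 421 for P1 and from 91 to 70 for silk ChIP, whose lists hold wider peaks. Counts moved with the overlap required, by construction of that setting. Requiring an overlap of 50% of the shorter peak left 163 NLP14 peaks on CPP8, 380 on DOF23, 230 on DOF3, 169 on EREB122, 2 on EREB7, 11 on GBP20, 266 on HSF24, 21 on MYB100, 14 on MYB40, 183 on MYB53, 259 on P1, 62 on THX39, 409 on WRKY38 and 59 on silk ChIP sites. Allowing gaps of up to 500 bases gave 980 on CPP8, 1442 on DOF23, 950 on DOF3, 758 on EREB122, 18 on EREB7, 35 on GBP20, 987 on HSF24, 111 on MYB100, 73 on MYB40, 886 on MYB53, 909 on P1, 272 on THX39, 1142 on WRKY38, 55 on protoplast and 203 on silk ChIP sites, and left 623 without a partner.

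WRKY38 and EREB122 stayed above their backgrounds either way: 11.3% against 5.44% and 4.67% against 2.05% at 50% overlap, 31.6% against 25.2% and 21.0% against 15.0% with gaps. CPP8 and DOF23 stayed below theirs, with 4.51% against 11.1% and 10.5% against 22.2% at 50% overlap. Joining within 20 kb put 434 peaks in runs and within 1 kb 84. The share of peaks in parts 3 to 6 was 41.7% among unshared peaks. That alternative and the next were chosen after seeing the data. Within 50 bases the rise over 20 to 50 kb was 2.46 for CPP8, 6.37 for DOF23, 7.37 for DOF3, 0.0 for EREB7 and 13.1 for WRKY38. Within 200 bases it was 6.01 for HSF24 and 9.5 for WRKY38. No paired analysis was possible because each factor has 1 list. Depth per list is unknown, so an absent overlap may be a site that was not called.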
